A study of Mus musculus with 24 samples.

Results

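The T cell receptor delta (Tcrd) libraries described here belong to a thymus repertoire study in mice with and without Satb1, a nuclear protein that organises chromatin in developing T cells. The members are the 3 wild-type and 3 knockout libraries titled as Tcrd, 6 of the 24 libraries of the series, with every V segment and both J segments that their tables list. Each table holds 15 V segments by 2 J segments, which makes 30 V-J pairs. Thymocytes came from mice of 4 to 12 weeks on a C57BL/6 background. The wild-type mice carry the genotype label wild type, and the knockout mice are labelled Satb1-/- on the samples and Satb1cKO in the series' design. The Cre driver of a conditional knockout, the age of each mouse and whether each library is a separate mouse are not stated in the sources used here. P-values therefore measure the spread between these libraries, which may be technical. Satb1 itself and markers of thymocyte subsets were not measured by these tables, so neither the genotype nor the cell type could be checked.

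The delta chain pairs with the gamma chain to form the receptor of γδ T cells, and it is assembled by joining a V segment through D segments to a J segment. The Tcrd locus lies inside the alpha (Tcra) locus: its D, J and constant segments sit between the V segments and the alpha J segments. When a V segment joins an alpha J segment, the intervening Tcrd segments are deleted from that chromosome. Some V segments carry a TRDV name and are counted here as delta-only by name, whereas those with a joint TRAV/DV name are used by alpha and delta chains alike and are called dual-use. RNA was reverse transcribed with an adaptor at the 5′ end and amplified between the adaptor and the constant region, so that no V-specific primer was involved, per the labels' protocols. A share is the percent of a library's V-J assignments that fell to a segment or pair. In such bulk data fewer cells using a segment and less receptor RNA per cell cannot be told apart.

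All 15 V segments were found on mouse chromosome 14 in the GENCODE M21 annotation of GRCm38. That build is given for orientation, since the authors' build is not given in the sources used here. TRDV2-2, the segment with the highest share in every library, spans positions 53960944 to 53961602, which is 162 kb upstream of TRDJ1 (54123138 to 54123188). TRDJ2 follows at 54136779 to 54136837. TRDV4 at 54074905 to 54075515 is the V segment closest upstream of TRDJ1, at 48 kb. TRDV5 at 54148662 to 54149294 lies beyond the J segments on the opposite strand and joins by inversion. The 4 listed TRAV15/DV6 copies are spread over the distal part, at 474, 564, 1166 and 1260 kb from TRDJ1.

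The following sequences show how the J segments differ and how far the near-identical V copies can be told apart at their V ends, on which the shares of single segments rest. Both J segments are given whole, with the conserved J motif (TTNGGNNNNGGN, read on the coding strand) in capitals; it occurs once in each. The V segments are given as their last 60 annotated bases, with the part from the conserved cysteine codon to the end of V in capitals, and all come from the GENCODE M21 transcripts.
TRDJ1: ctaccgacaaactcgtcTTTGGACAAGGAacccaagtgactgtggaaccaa
TRDJ2: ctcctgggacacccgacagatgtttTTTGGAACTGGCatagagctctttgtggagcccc
TRDV2-2: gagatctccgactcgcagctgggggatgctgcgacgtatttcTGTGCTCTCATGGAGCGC
TRDV2-1: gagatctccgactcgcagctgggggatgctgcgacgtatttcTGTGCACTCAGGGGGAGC
TRAV15-2-DV6-2: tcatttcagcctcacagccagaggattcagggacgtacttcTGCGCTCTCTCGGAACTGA
TRAV15D-2-DV6D-2: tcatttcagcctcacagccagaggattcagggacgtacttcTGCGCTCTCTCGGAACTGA
TRAV15-1-DV6-1: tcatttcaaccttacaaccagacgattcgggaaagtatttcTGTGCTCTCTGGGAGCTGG
TRAV15D-1-DV6D-1: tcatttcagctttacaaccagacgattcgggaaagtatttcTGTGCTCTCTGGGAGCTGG

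TRDV2-1 and TRDV2-2 differed at 6 of their last 270 bases, and 4 of those 6 lie in the 60 bases printed. TRAV15-2-DV6-2 and TRAV15D-2-DV6D-2 differed at 23 of 270 bases but at 0 of the last 60, so reads that cover only the V end do not separate them. TRAV15-1-DV6-1 and TRAV15D-1-DV6D-1 differed at 14 of 270 bases, 2 of them in the last 60. The 2 D copies were identical over 270 bases to the N copies TRAV15N-1 and TRAV15N-2, which the Tcrd tables do not list. How the authors divided such reads is not given in the sources used here, so shares of single copies are uncertain and the family is also given as a sum.

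The tables hold percentages without counts, so the depth of each library is unknown. The smallest value above 0 was 0.0320%, 0.0486% and 0.0306% in wild-type libraries 1 to 3, and 0.0128%, 0.0637% and 0.0803% in knockout libraries 1 to 3. Knockout library 1 was thus the finest and knockout library 3 the coarsest, and a listed 0 means less in the former than in the latter. Of the 30 pairs, 19, 18 and 18 were above 0 in the wild-type libraries and 22, 16 and 18 in the knockout libraries. Knockout library 1 also stood apart in its TRDJ2 share, and the means and sums below are given with and without it where that library moves them.

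In all 6 libraries the repertoire was led by one V segment joined to one J segment. TRDV2-2 took 54.7%, 50.0% and 56.9% of the wild-type libraries and 73.0%, 65.5% and 58.4% of the knockout libraries. Each knockout library lay above each wild-type library (narrowly for library 3), and the means were 53.9% ± 3.54 and 65.6% ± 7.30 (SD, n = 3 each). The ratio of the means was 1.22. On the log2(percent + 0.0128) scale the difference was 0.28 (SE 0.30), with a 95% interval of the fold from 0.725 to 2.04, and did not pass limma's test (adjusted p = 0.556). At the upper end of this interval the knockout share would exceed 100%. The limma SE is drawn towards the spread of the rarer segments, and it was 0.23 with the filter of 1%. With a variance trend, which lets the expected spread follow the mean share, limma's adjusted p was 0.127. Nearly all of the TRDV2-2 share was the TRDV2-2 with TRDJ1 pair, with 53.9%, 49.1% and 56.3% in wild type and 67.5%, 64.4% and 57.1% in knockout. All knockout values of the pair lay above all wild-type values, at means of 53.1% ± 3.66 in wild type against 63.0% ± 5.36 in knockout (SD, n = 3 each; limma adjusted p = 0.852).

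**Figure D1:**
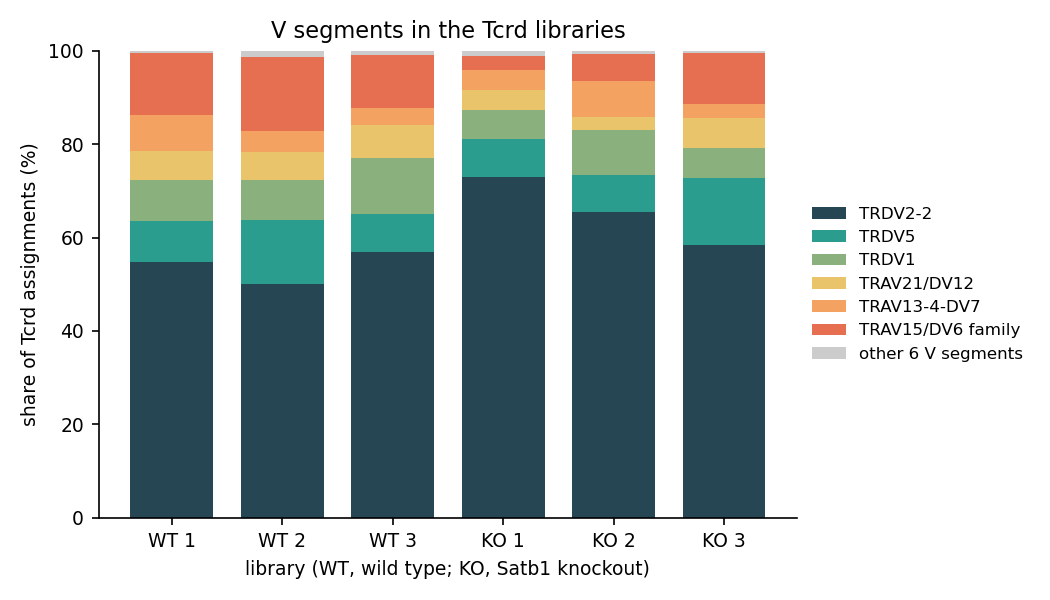
Stacked bars of the share of each V segment (percent of V-J assignments, axis from 0 to 100) in the 3 wild-type and 3 knockout Tcrd libraries. The lowest block, TRDV2-2, reaches 50.0% to 56.9% in wild type and 58.4% to 73.0% in knockout, and the TRAV15/DV6 block is thinnest in knockout library 1.

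None of the 13 V segments with a mean share of at least 0.1% was called at an adjusted p under 0.05 by limma (0%), and 0 had an unadjusted p under 0.05. On an arcsine square root scale, which gives less weight to low values than the logarithm, limma called 2 of them, TRDV2-2 (adjusted p = 0.0111) and TRAV15-2-DV6-2 (adjusted p = 0.0299). With the variance trend on the log2 scale limma called 0, and 2 had an unadjusted p under 0.05. Groups did not overlap for 4 of the 13 (30.8%), with TRDV2-2 and TRDV4 higher and TRAV15-2-DV6-2 and TRAV15D-1-DV6D-1 lower in all knockout libraries. Shares of a library sum to 100%, so that a larger share of TRDV2-2 leaves less for the other V segments by construction.

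The TRAV15/DV6 family is dual-use, and its delta chains include those of innate-like γδ T cells that resemble NKT cells. Together its 4 listed copies made up 13.3%, 15.9% and 11.3% of the wild-type libraries and 3.07%, 5.96% and 10.8% of the knockout libraries. The knockout libraries were all lower, but knockout library 3 lay only just below wild-type library 3. Means were 13.5% ± 2.30 and 6.59% ± 3.88 (SD, n = 3 each), the latter 8.35% without knockout library 1, and the difference had an exact two-sided permutation p of 0.1, the smallest that 3 against 3 libraries allow, and an adjusted p of 0.217 over 13 tests. Among V segments other than TRDV2-2, the family held 29.3%, 31.8% and 26.2% in wild type and 11.4%, 17.3% and 25.9% in knockout (exact permutation p = 0.1). The groups thus did not overlap on this base either, although knockout library 3 lay next to the lowest wild-type library.

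Within the family the most used copy was TRAV15-2-DV6-2. It took 7.16%, 7.63% and 7.84% of the wild-type libraries and 0.922%, 3.66% and 5.86% of the knockout libraries. The wild-type libraries lay close together and above all knockout libraries, which were spread widely. The means were 7.54% ± 0.348 and 3.48% ± 2.47 (SD, n = 3 each), a log2 difference of -1.47 (SE 0.74, limma adjusted p = 0.423), with a 95% interval of the fold from 0.10 to 1.30. TRAV15D-1-DV6D-1, a copy in the duplicated distal part, also had all knockout values below all wild-type values. It took 0.799%, 0.972% and 0.857% in wild type and 0.487%, 0.0637% and 0.401% in knockout (log2 difference -1.82, SE 0.79, limma adjusted p = 0.423). Among V segments other than TRDV2-2 its groups overlapped, with 1.81% in knockout library 1 against 1.77% in wild-type library 1. In knockout library 2 the value of this copy equals the smallest value above 0 in that library. The difference of TRAV15-2-DV6-2 was -0.70 without knockout library 1, and that of TRAV15D-1-DV6D-1 was -0.96 without knockout library 2.

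The other 2 copies overlapped between genotypes. TRAV15-1-DV6-1 took 4.25%, 6.66% and 1.62% in wild type and 1.38%, 2.23% and 3.13% in knockout (log2 difference -0.75, SE 0.65, limma adjusted p = 0.528). Wild-type library 3 was low for this copy and lay among the knockout libraries. The difference was -1.32 without that library, -0.30 without wild-type library 2 and -0.44 without knockout library 1. TRAV15D-2-DV6D-2 took 1.05%, 0.632% and 0.980% in wild type and 0.282%, 0 and 1.36% in knockout (log2 difference -2.35, SE 1.73, limma adjusted p = 0.528). Its highest and its lowest value were both in knockout libraries, and the difference was -0.47 without knockout library 2, where it was listed at 0, and -3.84 without knockout library 3.

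**Figure D2:**
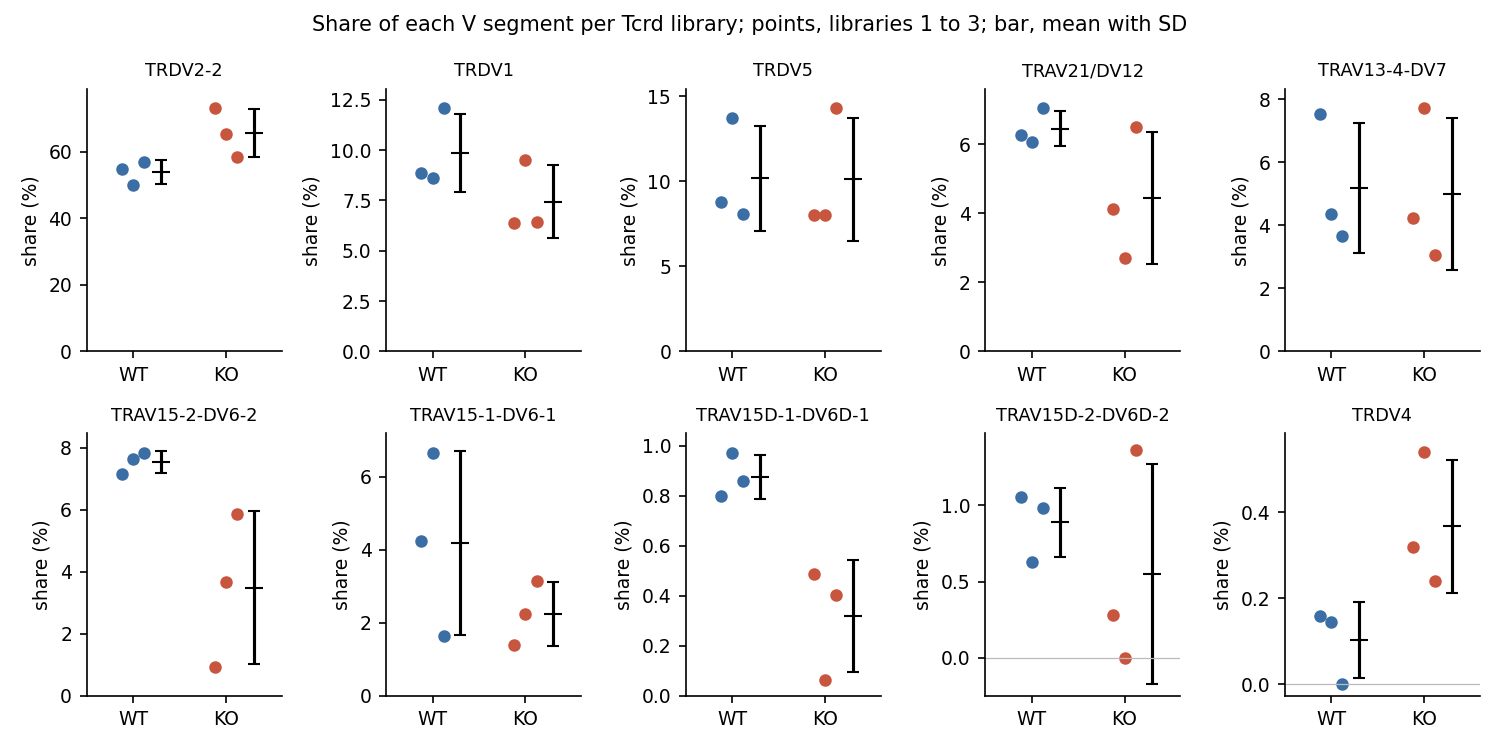
Share of 10 V segments (percent of V-J assignments, a separate scale for each panel) in each Tcrd library, with points for libraries 1 to 3 of wild type (WT) and knockout (KO) from left to right and a bar for the mean with SD. The groups do not overlap for TRDV2-2, TRAV15-2-DV6-2, TRAV15D-1-DV6D-1 and TRDV4, and they do for the other 6.

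TRDV5, the inversion-joining segment, and TRDV1, a delta-only name next to TRAV21/DV12, followed TRDV2-2 in the order of shares. TRDV5 held 8.76%, 13.7% and 8.05% of the wild-type libraries and 8.02%, 8.03% and 14.3% of the knockout libraries. One library of each genotype stood above the other 2, and the means of 10.2% ± 3.08 and 10.1% ± 3.62 (SD, n = 3 each) differed by less than either SD (limma adjusted p = 0.957, 95% interval of the fold from 0.473 to 2.04). TRDV1 held 8.85%, 8.60% and 12.1% in wild type and 6.37%, 9.52% and 6.42% in knockout (log2 difference -0.41, SE 0.35, limma adjusted p = 0.528), and the difference was -0.26 without wild-type library 3. TRDV5 and TRDV1 each took the place after TRDV2-2 in 3 of the 6 libraries, so their order was not resolved.

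The dual-use segments TRAV21/DV12 and TRAV13-4-DV7 had mean shares in the range of TRAV15-2-DV6-2. TRAV21/DV12, the alpha-delta segment nearest the D segments, held 6.26%, 6.07% and 7.04% in wild type and 4.14%, 2.71% and 6.50% in knockout. Knockout library 3 lay among the wild-type values and the other 2 below them (log2 difference -0.62, SE 0.42, limma adjusted p = 0.528, 95% interval of the fold from 0.311 to 1.35). The difference was -0.31 without knockout library 2 and -0.94 without knockout library 3. TRAV13-4-DV7 held 7.54%, 4.37% and 3.67% in wild type and 4.23%, 7.71% and 3.05% in knockout, a complete overlap (log2 difference -0.10, SE 0.51, limma adjusted p = 0.957). The intervals of TRAV13-4-DV7, TRDV1, TRDV5 and TRAV21/DV12 all include a change of 1.35-fold in either direction, so equal use in the genotypes was not shown.

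TRDV4 is the V segment of fetal-derived γδ T cells that settle in the skin. It was listed at 0.160%, 0.146% and 0 in wild type and at 0.320%, 0.541% and 0.241% in knockout. All 3 knockout libraries lay above all wild-type libraries, at means of 0.102% ± 0.0885 and 0.367% ± 0.156 (SD, n = 3 each). The log2 difference of 2.35 (SE 1.13) did not pass limma's test (adjusted p = 0.423), and it was 1.12 without wild-type library 3, where TRDV4 was listed at 0. Despite being the V segment closest upstream of the J segments, TRDV4 had under 1% of every library.

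Of the remaining V segments, TRDV2-1, the near copy of TRDV2-2, was listed at 0.0959%, 0 and 0.184% in wild type and at 0.346%, 0.0637% and 0 in knockout. The dual-use segments TRAV16D-DV11 and TRAV6-7-DV9 had mean shares of 0.269% and 0.368% in wild type and 0.0737% and 0.178% in knockout, with overlapping groups. TRAV4-4-DV10 was above 0 in 1 library of each genotype and was below the mean of 0.1% needed for testing. TRAV14D-3-DV8 was listed at 0 in all 6 libraries.

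**Figure D3:**
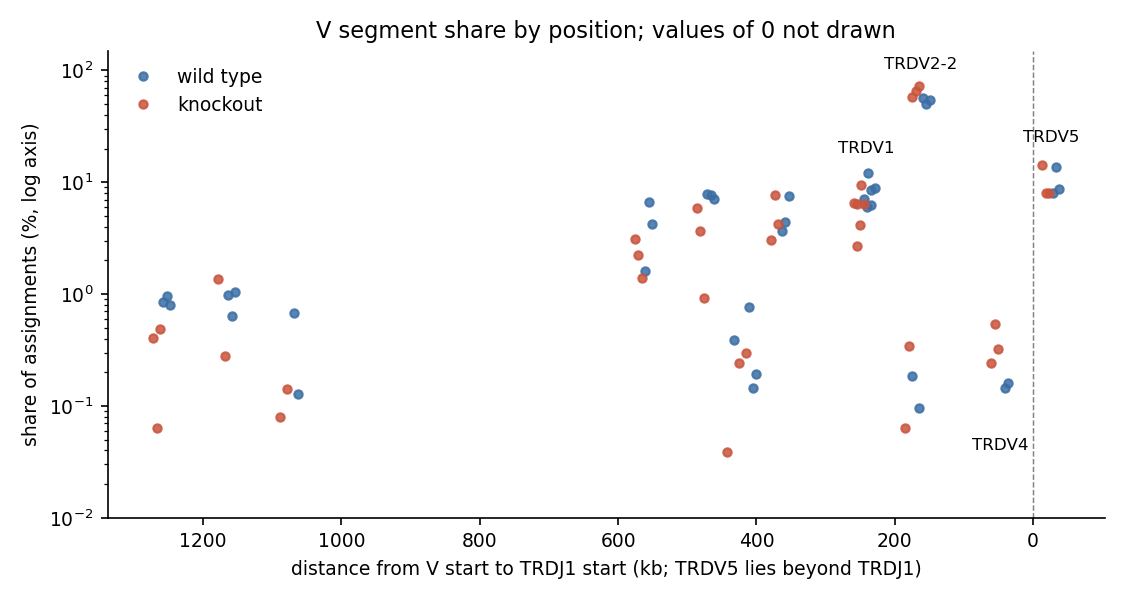
Share of each V segment (percent, log axis, one point per library and shifted slightly sideways so that the 6 points can be seen) against the distance in kb from the V start to the start of TRDJ1 in GRCm38. Values of 0 are not drawn; TRDV2-2 is highest at 162 kb, whereas TRDV4 at 48 kb stays under 1%.

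By name class, the 5 delta-only V segments summed to 72.6%, 72.4% and 77.2% of the wild-type libraries and to 88.1%, 83.6% and 79.4% of the knockout libraries. The groups did not overlap, with means of 74.1% ± 2.71 and 83.7% ± 4.36 (SD, n = 3 each; exact permutation p = 0.1, adjusted p = 0.217). Without knockout library 1 the knockout mean was 81.5%. The 10 dual-use segments are the complement and were correspondingly lower. The delta-only sum contains TRDV2-2, whose mean rose by 11.8 points, more than the 9.60 points of the sum. The rest of the delta-only sum was thus lower in the knockout mean. TRDV1 and TRDV5 had lower knockout means, and TRDV2-1 and TRDV4 had higher ones. As shares among V segments other than TRDV2-2, these 4 segments all had log2 differences above 0. Of the 8 dual-use segments tested, 8 had a log2 difference below 0 (median -1.20), against 10 of all 13 V segments (median -0.62). Of the 5 delta-only segments, 3 were above 0 (median 0.12). After centring each library on its mean log2 share, the split over all 13 was 6 above and 7 below 0, with a median of -0.07, and the delta-only segments were then 5 of 5 above and the dual-use segments 7 of 8 below 0. The TRAV15/DV6 family stayed at 4 of 4 below 0 on either base. None of these segments passed the test, and the counts describe the lists only.

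By position, the 6 V segments nearest the D and J segments summed to 80.6% ± 3.22 of wild-type and 88.1% ± 3.54 of knockout libraries (SD, n = 3 each; exact permutation p = 0.1, adjusted p = 0.217). This sum contains TRDV2-2 and moves with it. At the far end, the 4 segments of the duplicated D copies summed to 1.98%, 2.28% and 1.84% in wild type and to 0.910%, 0.0637% and 1.85% in knockout. Knockout library 3 lay above 1 wild-type library, and the means of 2.03% ± 0.228 and 0.940% ± 0.891 (SD, n = 3 each) gave an exact permutation p of 0.2. The difference of -1.09 points was -0.656 without knockout library 2.

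J use was close to exclusive for TRDJ1. TRDJ2 took 1.41%, 1.51% and 2.36% of the wild-type libraries and 6.12%, 1.56% and 2.09% of the knockout libraries. Knockout library 1 was high and the other 2 knockout libraries lay within the wild-type range. Means were 1.76% ± 0.523 and 3.26% ± 2.50 (SD, n = 3 each; exact permutation p = 0.5), and the knockout mean without library 1 was 1.82%. This library was also the one with the smallest step between values and the most pairs above 0, and the part of that in its TRDJ2 share was not tested.

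Most of the TRDJ2 in knockout library 1 was joined to TRDV2-2. The TRDV2-2 with TRDJ2 pair held 0.895%, 0.923% and 0.643% of the wild-type libraries and 5.51%, 1.11% and 1.36% of the knockout libraries. The knockout libraries were all higher for this pair (log2 difference 1.31, SE 0.72, limma adjusted p = 0.577), library 1 by far, and the difference was 0.60 without that library. TRDV2-2 made up 63.6%, 61.3% and 27.3% of all TRDJ2 in wild type and 90.0%, 71.4% and 65.4% in knockout. TRDJ2 with any other V segment came to 0.511%, 0.583% and 1.71% in wild type and 0.615%, 0.446% and 0.722% in knockout, where the high library was wild-type library 3.

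No V segment was called for a difference in its own TRDJ2 to TRDJ1 ratio (0 of 13 by limma, 0%). Within TRDV2-2, TRDJ2 accounted for 1.63%, 1.85% and 1.13% of the wild-type and 7.54%, 1.70% and 2.34% of the knockout share, with knockout library 2 between wild-type values. Summed over delta-only V segments it was 1.73% ± 0.160 and 3.46% ± 2.76, and over dual-use segments 1.97% ± 1.91 and 1.93% ± 0.483 (SD, n = 3 each; exact permutation p = 0.4 and 1). Without knockout library 1 the knockout mean over delta-only V segments was 1.87%, which reduced the difference from 1.73 to 0.149 percentage points. TRDV4 departed from the dominance of TRDJ1 in some libraries. TRDJ2 made up 40.0% of its share in wild-type library 1, 56.0% in knockout library 1 and 33.3% in knockout library 3, and 0 in the second library of each genotype. TRDV4 was listed at 0 in wild-type library 3, and the other fractions rest on a segment with under 1% of each library. Within TRDV4, TRDJ2 exceeded TRDJ1 only in knockout library 1 (0.179% against 0.141%). In knockout library 3 the TRDV4 with TRDJ2 pair was at the smallest value above 0 of that library, 0.0803%.

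**Figure D4:**
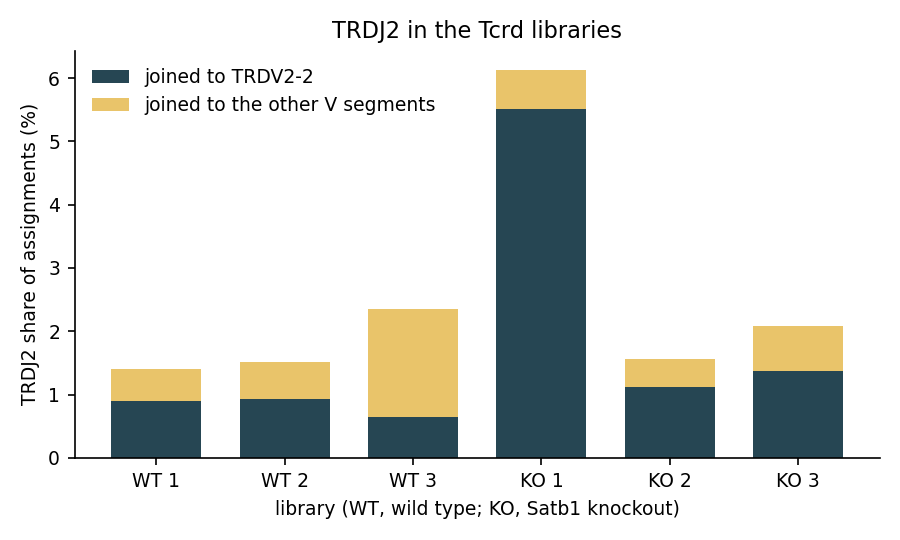
TRDJ2 in each Tcrd library (percent of V-J assignments), split into the part joined to TRDV2-2 and the part joined to other V segments; bars start at 0. Knockout library 1 reaches 6.12%, of which 5.51% is TRDV2-2, and the 5 other libraries lie between 1.41% and 2.36%.

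At the level of V-J pairs, limma called 0 of 18 pairs with a mean of at least 0.1% (0%), and groups did not overlap for 4 of 18 (22.2%). Besides the 2 TRDV2-2 pairs, TRAV15-2-DV6-2 with TRDJ1 held 7.16%, 7.63% and 7.16% in wild type and 0.910%, 3.57% and 5.62% in knockout (log2 difference -1.47, SE 0.75, limma adjusted p = 0.577). All wild-type values lay above all knockout values. The same held at a lower level for TRAV15D-1-DV6D-1 with TRDJ1, at means of 0.860% in wild type and 0.317% in knockout. The TRDJ1 pairs of the 4 other leading segments followed their V segments and overlapped between genotypes. TRDV5 with TRDJ1 held 8.63%, 13.3% and 8.02% in wild type and 7.97%, 7.93% and 14.1% in knockout, and TRDV1 with TRDJ1 held 8.82%, 8.60% and 11.3% against 6.30%, 9.46% and 6.26%. TRAV21/DV12 with TRDJ1 held 6.20%, 6.07% and 6.98% against 3.97%, 2.64% and 6.42%, and TRAV13-4-DV7 with TRDJ1 held 7.32%, 4.28% and 3.52% against 4.11%, 7.58% and 3.05%. On the arcsine square root scale TRAV15-2-DV6-2 with TRDJ1 and TRDV2-2 with TRDJ1 were called, as were their V segments.

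Entropy was lower in every knockout library than in any wild-type library. Shannon entropy over V segments, which is lower the more a few segments dominate, was 2.27, 2.40 and 2.15 bits in wild type and 1.57, 1.79 and 2.08 bits in knockout. The groups did not overlap (2.27 ± 0.128 and 1.81 ± 0.258 bits, SD, n = 3 each; exact permutation p = 0.1, adjusted p = 0.217), although knockout library 3 was close to wild-type library 3. The knockout mean was 1.94 bits without knockout library 1. Entropy over the pairs was 2.39 ± 0.109 and 2.00 ± 0.189 bits (SD, n = 3 each), again without overlap. By either entropy the libraries ranked in the reverse order of their TRDV2-2 shares, so neither is a result separate from that share. The mutual information of V and J choice, which cannot exceed the low entropy of a J use dominated by TRDJ1, averaged 0.0103 ± 0.00561 bits for wild type against 0.00853 ± 0.00834 bits for knockout (SD, n = 3 each; exact permutation p = 0.8), and it was not read as a measure of independence.

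Whole repertoires did not separate clearly by genotype. The total variation distance, the summed share that would have to move to turn one library into another, averaged 10.1 percentage points within wild type, 14.3 within knockout and 15.3 between them. The excess of 3.14 points over the mean within genotypes had a one-sided exact permutation p of 0.2 (adjusted p = 0.325). The excess was 7.54 without knockout library 3 and 3.54 without knockout library 2 (exact permutation p = 0.1 each, the smallest possible). It was 3.16 without wild-type library 3 (exact permutation p = 0.2). It was 2.02, 1.12 and 1.44 without wild-type library 1, wild-type library 2 and knockout library 1 (exact permutation p = 0.3 each). Knockout library 3 was nearer to the wild-type libraries, at 10.0 to 11.0 points, than the average distance within knockout.

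All 15 V segments of the delta tables are listed in the alpha tables of the same study too, which allowed the genotype difference of a segment to be compared between chains. Each chain's libraries were amplified and normalised separately, so only the difference within a chain was compared. Of 9 segments whose mean share reached 0.1% in both chains, limma's interaction test called 3 (33.3%): TRDV2-2, TRDV1 and TRAV21/DV12. For TRDV2-2 the knockout minus wild-type difference was 0.28 in Tcrd and 3.50 in Tcra on the log2(percent + 0.117) scale, and the Tcrd difference was smaller by 3.22 (SE 0.45, limma adjusted p = 8.49e-05). TRDV2-2 held 53.9% of wild-type Tcrd libraries on average, so a rise in Tcrd as large as that in Tcra would exceed 100%. Part of this interaction is therefore fixed by the scale, and the rest was not separated from it. At this share TRDV2-2 also leaves less room in Tcrd for a rise of TRDV1 or TRAV21/DV12. The part of this in their interactions was not tested. The alpha shares of TRDV2-2 were 0.539%, 0.535% and 0.433% in wild type and 5.90%, 9.49% and 5.74% in knockout, without overlap. The alpha knockout libraries were coarser than the wild-type ones, with 1380, 555 and 374 pairs above 0 against 1978, 1969 and 1573. Their smallest values above 0 were 0.0180%, 0.0593% and 0.117% against 0.0158%, 0.0157% and 0.0241%, and the part of this in the interaction was not tested. The 3 interactions passed limma's test with each of the 12 libraries left out in turn (highest adjusted p = 0.00172).

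TRDV1 and TRAV21/DV12 had opposite signs in the chains, although neither Tcrd difference passed its own test. With centred shares the Tcrd differences were 0.15 for TRDV1 and -0.07 for TRAV21/DV12. Among V segments other than TRDV2-2 they were 0.031 and -0.18. TRDV1 differed by -0.41 in Tcrd and 2.62 in Tcra (interaction -3.03, SE 0.54, limma adjusted p = 0.000343). TRAV21/DV12 differed by -0.61 in Tcrd and 2.44 in Tcra (interaction -3.05, SE 0.55, limma adjusted p = 0.000343). In the alpha libraries all 3 knockout values of both segments lay above all wild-type values, whereas in the delta libraries the groups overlapped. The TRAV15/DV6 copy TRAV15-2-DV6-2 was lower in the knockout means of both chains, by differences of -1.42 in Tcrd and -1.01 in Tcra. These did not differ detectably (limma adjusted p = 0.820, 95% interval of the interaction from -2.23 to 1.42). Its Tcra groups overlapped, at 0.254%, 0.204% and 0.409% in wild type and 0.253%, 0.0593% and 0 in knockout. The value in Tcra knockout library 2 equals the smallest above 0 in that library. The listed 0 is in Tcra knockout library 3, the coarsest. With the pseudocount of the main Tcrd fit the Tcra difference was -2.21 and the interaction 0.74. A decrease shared by both chains was therefore not shown. Of the segments with a delta-only name, TRDV1, TRDV2-1 and TRDV2-2 were above 0 in all 6 alpha libraries, whereas TRDV4 and TRDV5 were listed at 0 in all 6 and could not be compared. Whether alpha and delta libraries of equal number share an animal is not stated, and the fit treated the 12 libraries as independent.

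**Figure D5:**
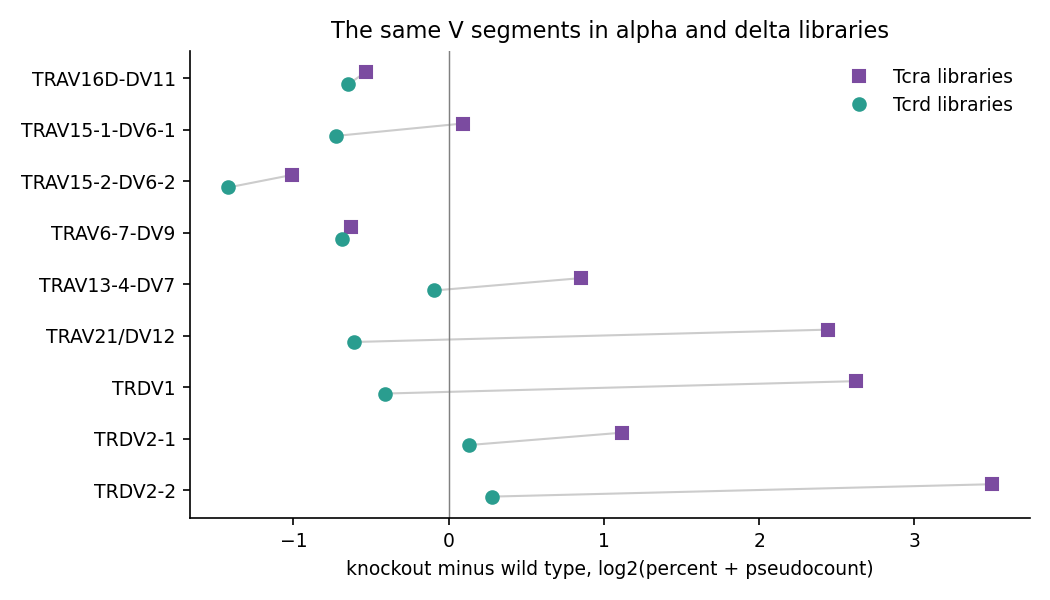
Knockout minus wild-type difference of the 9 V segments tested in both chains, on the log2(percent + 0.117) scale, with squares for the Tcra and circles for the Tcrd libraries and a line joining the values of a segment. The longest lines belong to TRDV2-2, TRDV1 and TRAV21/DV12, whose Tcra differences lie between 2.44 and 3.50 and whose Tcrd differences lie between -0.61 and 0.28.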

How the data were processed

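V-J tables of 6 Tcrd libraries (and 6 Tcra libraries for the comparison between chains) were used. The deposited values are percentages, which the authors made relative to all V-J assignments of a library: the cells of each table sum to 100. fastp is named in the submitters' processing notes; for the segment caller, the build and the counting of reads or clonotypes, no source used here gives an answer. Depth is unknown, so no counting intervals are given. In 5 libraries all values were whole multiples (tolerance 0.01) of the smallest value above 0; in knockout library 2 this held for 50% of the values, and for all of them with a step of 0.0318%, which is finer than its smallest value. Total rows and columns were dropped.

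Segments and pairs whose mean over the 6 libraries reached 0.1% were tested with limma 3.58.1 (R 4.3.3) on log2(percent + 0.0128), the smallest value of the finest library, with Benjamini-Hochberg adjustment over all features tested; fold changes on this scale are compressed for low shares and, being differences of mean logarithms, can exceed the ratio of means where a library is listed at 0. Single values were tested with exact permutation tests over 20 arrangements (scipy 1.17.1), adjusted over 13 tests. The interaction fit used a pseudocount of 0.117%. The fit was checked on simulated log2 shares with the same spread for every segment and without closure to 100%. That check covered bias and false calls, and it does not give the power in these libraries. Replicate numbers did not pair the libraries: residuals of equally numbered libraries correlated at 0.0839, -0.0319 and -0.0816 over V segments and at 0.437, -0.0590 and 0.0990 over pairs, not above 0.1 for all 3 numbers. Values per library are given for V segments averaging 1% or more in a genotype, pairs averaging 5% or more, TRDV4 and TRDV5; TRAV15D-1-DV6D-1, TRAV15D-2-DV6D-2, TRDV2-1 and the TRDV2-2 with TRDJ2 pair fall outside that rule and were picked with their values known. Members, lists and tests were chosen with earlier results of these data known. Alternatives were other pseudocounts, scales, filters, bases, leaving out each library, and the replicate block; the variance trend and the base without TRDV2-2 were added after seeing the data.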

Additional observations from a re-analysis of the deposited data

Results flagged for a closer look

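The genotype difference of 3 V segments differed between the delta and alpha libraries by limma's interaction test. The Tcrd minus Tcra difference on the log2(percent + 0.117) scale was -3.22 for TRDV2-2 (adjusted p = 8.49e-05), -3.05 for TRAV21/DV12 and -3.03 for TRDV1 (adjusted p = 0.000343 for both). In the alpha libraries each of these segments was higher in 3 of 3 knockout libraries than in every wild-type library. In the delta libraries this held for TRDV2-2 alone of the 3. Because TRDV2-2 held 53.9% of wild-type Tcrd libraries on average, a rise as in Tcra would exceed 100%. Part of its interaction is therefore fixed by the scale. At this share TRDV2-2 also leaves less room in Tcrd for a rise of TRDV1 or TRAV21/DV12. The part of this in their interactions was not tested.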

How the results depend on the processing

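Of 427 alternative values, 389 were counted as keeping their direction and their side of the threshold. For the single values that side was fixed in advance, since their exact tests cannot go below p = 0.1. A change from 3 to 4 interaction calls was also counted as kept. The total is therefore not a measure of robustness. On the arcsine square root scale limma called 2 V segments and 2 pairs where it had called 0. The count of V segments called for TRDJ2 use ran from 0 to 1 over the leave-one-out fits; the call came without wild-type replicate 3 (TRAV15-2-DV6-2, adjusted p = 0.0280). The interaction test called 3 to 4 segments; the added one was TRAV13-4-DV7 without Tcra knockout replicate 3 (adjusted p = 0.0459). With centred log-ratios the differences of TRAV13-4-DV7, TRDV1 and TRDV5 became 0.46, 0.15 and 0.53, and those of the TRDJ1 pairs of TRAV13-4-DV7 and TRDV5 0.30 and 0.36. Among V segments other than TRDV2-2 they were 0.35, 0.031 and 0.42, with 0.37, 0.043 and 0.43 for the TRDJ1 pairs, and the TRDJ2 difference was -0.322 percentage points; the change of base removes TRDV2-2 from the total by construction. Leaving out 1 library gave -0.46 to 0.21 for TRAV13-4-DV7 (its TRDJ1 pair -0.44 to 0.23) and -0.30 to 0.21 for TRDV5 (pair -0.29 to 0.21). It gave -0.682 to 1.05 percentage points for TRDJ2 within dual-use V, -0.00633 to 0.00181 bits for mutual information and -1.33 to 1.67 for the number of pairs above 0. TRDJ2 within dual-use V differed by 0.379 points with each pair counted once and by 0.161 points with the smallest values dropped; the cause was not tested. The difference in TRDJ2 share ran from 0.0669 points (without knockout replicate 1) to 2.35. With the replicate block limma called 0 V segments, 0 pairs and 0 segments for TRDJ2 use, and 3 in the interaction test, which changed no call. The exact sign-flip test of single values cannot go below p = 0.25 with 3 pairs. With 2 libraries left in a genotype, the spread comes mainly from the other. Unknown depth limits all values near the smallest of a library, TRDV4, TRDV2-1 and the rarer dual-use segments above all.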
